A study of Sus scrofa with 6 samples.

Results

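Cholesterol is built from acetyl-CoA through mevalonate, farnesyl diphosphate, squalene and lanosterol, and the enzymes of that route are switched on together by the transcription factor SREBP-2. When sterols are scarce, the escort protein SCAP carries SREBP from the endoplasmic reticulum to the Golgi, where the proteases MBTPS1 and MBTPS2 release its active domain. When sterols are plentiful, INSIG1 and INSIG2 hold SCAP back. Cells of the artery wall, among them smooth muscle cells and macrophages, can make cholesterol by this route as well as take it up from lipoproteins.

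The genes described here are the mevalonate and sterol pathway enzymes, the SREBP regulators and the sterol carriers of a list of 29 symbols, matched to the symbol column of the deposited gene table. Of these, 21 had a row among the 22861 genes, 20 had at least 1 count and the same 20 passed the low-count filter and were tested. STARD4, a soluble sterol carrier, had a gene row with 0 counts in all 6 pools, but 3 of the 4 isoforms that carry its name held counts that are not in that row. The highest of them had 10, 9 and 23 counts in lesion pools 2 and 3 and lesion-free pool 6 and 0 in the other pools. CYP51A1 was listed under the symbol CYP51. IDI1 and MSMO1 had no row under those symbols but were found by gene identifier, and are given apart from the 21. SREBF2 (the gene of SREBP-2), INSIG2, MVD, LBR and TMEM97 had no row under those names and are not analysed here.

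The samples were abdominal aorta of miniature swine. The lesion group is the line labelled WMS FH (Wisconsin Miniature Swine with familial hypercholesterolaemia), with atherosclerotic lesions, and the comparison group is the line labelled WMS normal, lesion free. Each group's 11 animals gave RNA for 3 pools, here called lesion pools 1 to 3 and lesion-free pools 4 to 6. No treatment, age, sex or diet is given per pool. Line and lesion go together in every pool and cannot be told apart. Which animals went into which pool is not stated, so p-values measure only the spread between pools.

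Counts per pool ran from 4650176 (lesion pool 1) to 11442433 (lesion pool 3). Lesion pool 1 had the fewest counts and stood apart, with correlations of 0.79 across tested genes with each other lesion pool, whereas those 2 correlated at 0.91. Levels below are scaled CPM (a gene's counts relative to the scaled total of its pool), which do not correct for gene length, so they are compared between pools and not between genes. The limit that a count of 0 allows, 3 counts, was 0.577 CPM for lesion pool 1 and lay between 0.268 and 0.359 CPM elsewhere, for counting error only. Markers of arterial cell types differed between the groups. The summed level of 12 matched macrophage markers was 1600 to 3472 CPM in lesion pools and 204 to 385 CPM in lesion-free pools, and 10 of 11 tested rose. That of 7 smooth muscle markers was 38646 to 53293 against 80155 to 94674 CPM, and 2 of 7 fell (CNN1 and DES, adjusted p = 0.0251 and 0.0468 by limma, both over 0.05 with limma-trend and without lesion pool 1, lesion-free pool 5 or lesion-free pool 6, at most 0.185 and 0.278). Of all genes tested, 0.968% were called higher and 0.0771% lower. In bulk tissue, fewer cells of a type and less RNA per cell cannot be told apart, and the part of these markers in the results below was not tested.

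The main question was whether genes of cholesterol synthesis and its control differ between lesion and lesion-free aorta. INSIG1 was the single member above all lesion-free pools in every lesion pool, at 47.3 ± 21.1 CPM against 11.9 ± 2.53 CPM (SD, n = 3 each), but it did not pass the threshold. In scaled CPM, FDPS, LSS, TM7SF2, SC5D and DHCR7 were below all lesion-free pools in every lesion pool, and none of them passed either. No member was called by limma at an adjusted p of 0.05, in either direction. Among all 11673 genes tested, 0.968% were called higher and 0.0771% lower. At an unadjusted p under 0.05 there were 4 of 20 members, INSIG1 higher and FDPS, LSS and TM7SF2 lower, where 10.6% of all genes tested were under it. Without lesion-free pool 6, INSIG1 alone of these was under it.

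The direction was uneven across the members. Of 20 log2 folds (lesion over lesion-free), 15 were negative and 5 positive, and their median was -0.32. Over all genes tested 50.1% were negative and the median was -0.00. With plain library totals in place of scaled ones, the median of all genes moved to 0.16 and that of the members to -0.17, with 14 of 20 members negative. In scaled CPM, the groups did not overlap in 1 member with lesion pools above, against 10.5% of all genes. Lesion pools were below without overlap in 5 members, against 8.97%. With plain library totals, FDPS, LSS, SC5D and DHCR7 overlapped between the groups, and INSIG1 and TM7SF2 did not. The share of all genes without overlap under plain totals is not given here. These counts describe the members and are not a test of the list.

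**Figure D1:**
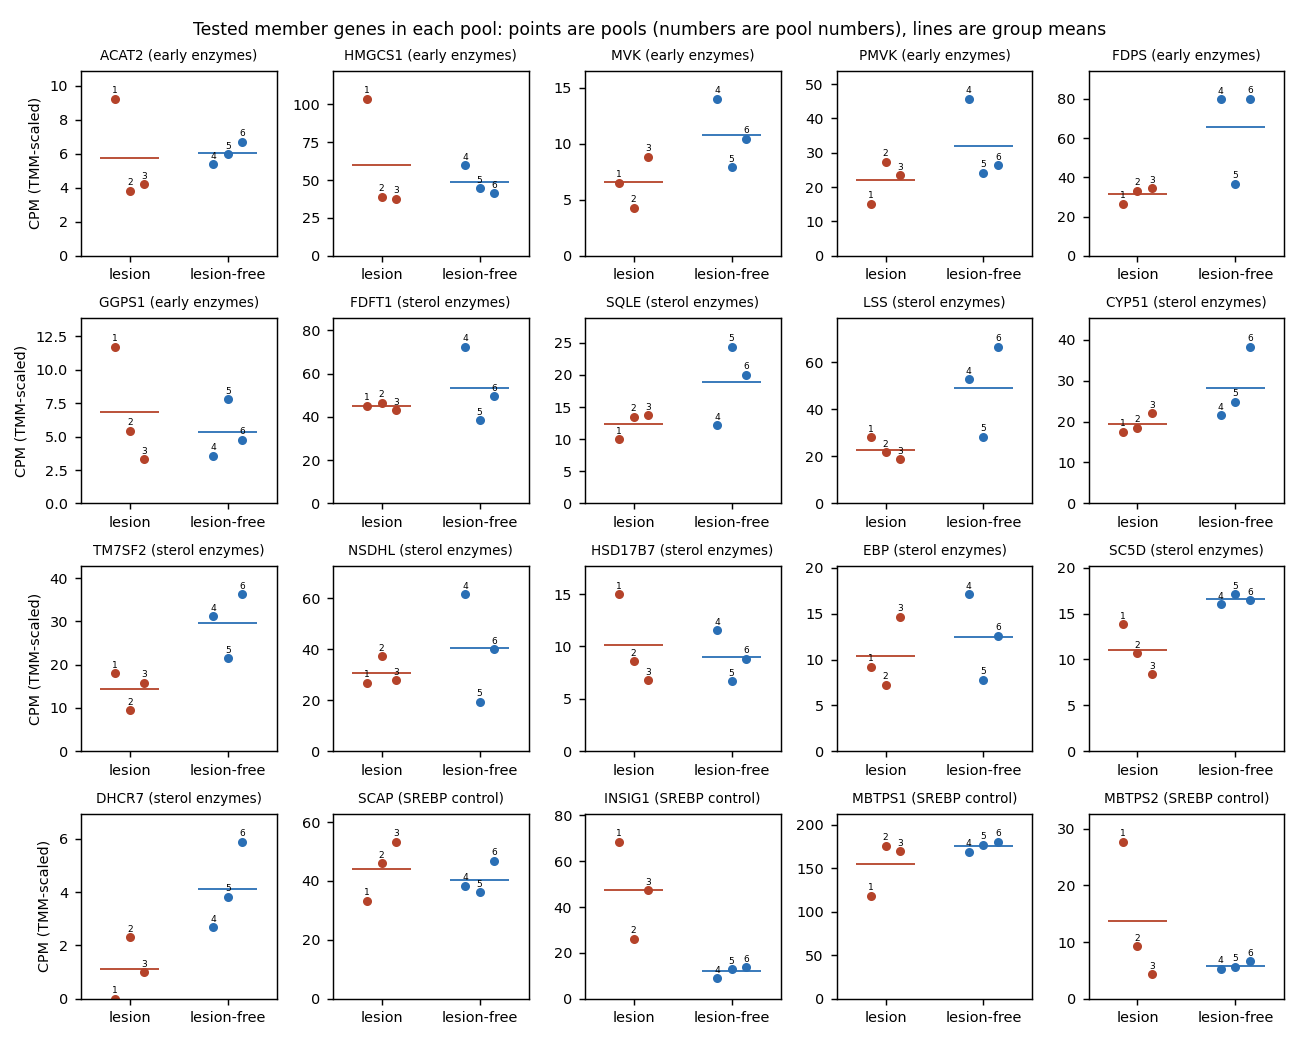
Scaled CPM of the 20 tested members in each pool (y axis, from 0; x axis, group), with points numbered by pool and lines at group means. INSIG1 is above the lesion-free pools in all 3 lesion pools (26.2 to 68.4 against 9.05 to 13.8 CPM), and FDPS, LSS, TM7SF2, SC5D and DHCR7 are below them.

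INSIG1 (ENSSSCG00000016420) encodes the sterol-sensing anchor of SCAP, and its own gene is a known SREBP target. Its level was 68.4, 26.2 and 47.4 CPM in lesion pools 1, 2 and 3 and 9.05, 12.9 and 13.8 CPM in lesion-free pools 4, 5 and 6. The lowest lesion pool thus lay above the highest lesion-free pool, and lesion pool 1 was highest. The fitted difference was 3.56-fold, a log2 fold of 1.83 (SE 0.44, 95% interval 0.89 to 2.77, limma adjusted p = 0.0691), which ranked 145 by p among all genes tested. Leaving out a pool gave log2 folds of 1.58 (without lesion pool 1) to 2.23 (without lesion pool 2). The gene was called without lesion pool 2 (adjusted p = 0.00758) and with plain library totals (adjusted p = 0.0410), with adjusted p from 0.0506 to 0.203 under every other alternative.

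**Figure D2:**
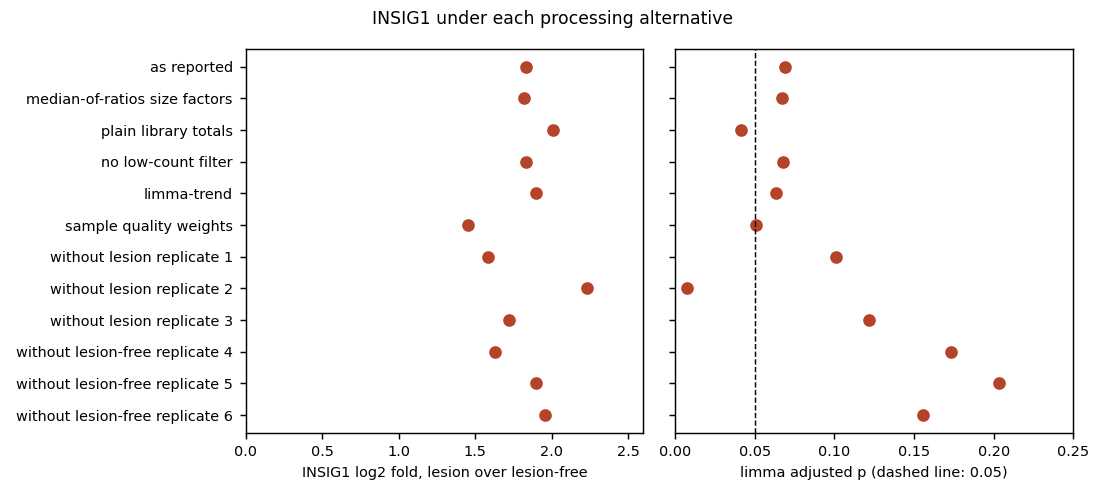
INSIG1 log2 fold (left x axis) and limma adjusted p (right x axis; dashed line at 0.05) as reported and under 11 alternatives (y axis). The log2 fold stays between 1.45 and 2.23, and the adjusted p is under 0.05 for plain library totals and without lesion replicate 2.

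The other regulators of SREBP processing overlapped between the groups, and none had an unadjusted p under 0.05. SCAP, the escort, stood at 33.3, 46.0 and 53.3 CPM in the lesion pools and 38.4, 36.2 and 46.9 CPM in the lesion-free pools. Its log2 fold was 0.14 (95% interval -0.50 to 0.79), with the sign turned without lesion pool 3 (-0.006). MBTPS1, the protease that makes the initial cut in SREBP, stood at 118, 176 and 169 CPM against 169, 177 and 180 CPM. Only lesion pool 1 was below the rest, and the log2 fold was -0.20 (95% interval -0.75 to 0.36). MBTPS2, the protease that makes the cut within the membrane, stood at 27.7, 9.28 and 4.38 CPM against 5.28, 5.63 and 6.60 CPM. Lesion pool 1 was far above the others and lesion pool 3 below all of them, so that the log2 fold of 0.55 had an interval of -0.85 to 1.94. It was 0.14 without lesion pool 1 and 1.23 without lesion pool 3. The coefficient of variation of MBTPS2 was 89.1% over lesion pools and 11.7% over lesion-free pools.

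Among the early enzymes, which lead from acetyl-CoA to farnesyl diphosphate and its extension, FDPS was the one with separate groups in scaled CPM. FDPS (ENSSSCG00000006512), farnesyl diphosphate synthase, stood at 26.5, 33.2 and 34.6 CPM in the lesion pools and 79.9, 36.8 and 80.1 CPM in the lesion-free pools. Lesion-free pool 5 was close to the lesion pools, and the other lesion-free pools were above 79 CPM. The log2 fold was -0.96 (SE 0.36, limma adjusted p = 0.317), and it stayed negative, from -1.33 to -0.78, under all 11 alternatives, none of which called it.

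HMGCS1, the HMG-CoA synthase that opens the route, showed no such pattern. Its level was 104, 39.1 and 37.6 CPM in the lesion pools against 59.8, 44.6 and 41.1 CPM. Lesion pool 1 was the highest of all pools and the other lesion pools were the lowest. The log2 fold of 0.07 (95% interval -0.72 to 0.86) turned to -0.32 without lesion pool 1. ACAT2, the cytosolic acetoacetyl-CoA thiolase, and GGPS1, which extends farnesyl to geranylgeranyl diphosphate, were likewise highest in lesion pool 1, at 9.23 and 11.7 CPM. Their log2 folds were -0.38 and 0.01, and that of GGPS1 changed sign under 6 of 11 alternatives. The mevalonate kinases MVK and PMVK had log2 folds of -0.77 and -0.45, with 95% intervals of -1.89 to 0.36 and -1.25 to 0.34.

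IDI1, the isopentenyl diphosphate isomerase found by identifier, stood at 14.8, 15.5 and 16.2 CPM in the lesion pools and 39.0, 4.91 and 27.8 CPM in the lesion-free pools. The lesion pools were close together and lay inside the 7.95-fold span of the lesion-free pools. Its log2 fold was -0.21, with a 95% interval of -1.60 to 1.17.

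All 10 tested enzymes of the sterol part, from squalene synthesis onward, had negative log2 folds, with a median of -0.50, but most intervals included 0. MSMO1, the sterol methyl oxidase found by identifier and not among these 10, had a positive one of 0.24 (95% interval -0.83 to 1.31) and was highest in lesion pool 1, at 18.8 CPM. The sign is not fixed for all of them, since HSD17B7, NSDHL, EBP and FDFT1 changed sign in 4, 2, 1 and 1 of 11 alternatives. LSS (ENSSSCG00000021418), lanosterol synthase, stood at 28.1, 21.7 and 18.7 CPM in the lesion pools and 52.8, 28.3 and 66.6 CPM in the lesion-free pools. Lesion pool 1 and lesion-free pool 5 were nearly level at the border between the groups. The log2 fold was -1.10 (SE 0.38, limma adjusted p = 0.264). TM7SF2 (ENSSSCG00000013004), a sterol reductase that acts after CYP51 and shares its step with LBR, stood at 18.1, 9.46 and 15.8 CPM against 31.1, 21.4 and 36.3 CPM. Every lesion pool was lower, with pool 2 the lowest, and the log2 fold was -1.13 (SE 0.39, limma adjusted p = 0.273). Under the alternatives the log2 fold ran from -1.44 to -0.83 for LSS and from -1.33 to -0.81 for TM7SF2, and neither was called in any.

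SC5D, the lathosterol desaturase, stood at 13.8, 10.7 and 8.40 CPM in the lesion pools and 16.1, 17.1 and 16.5 CPM in the lesion-free pools. The lesion-free pools were nearly equal, with a coefficient of variation of 3.26%, the lowest of the tested members in that group. The log2 fold was -0.69 (95% interval -1.55 to 0.17). DHCR7, which reduces dehydrocholesterol to cholesterol, had few counts. It had 0, 26 and 11 counts in the lesion pools and 25, 32 and 58 in the lesion-free pools, or 0, 2.32 and 1.00 against 2.69, 3.83 and 5.89 CPM. The 0 in lesion pool 1 allows up to 0.577 CPM. Its log2 fold of -2.28 was the lowest of the members and had the widest interval (-5.31 to 0.75), since it depends on the 0.5 added to each count. It was -1.35 without lesion pool 1 and -3.33 without lesion pool 2.

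SQLE, squalene epoxidase, a rate-controlling enzyme of the sterol part, stood at 9.996, 13.5 and 13.8 CPM in the lesion pools and 12.2, 24.4 and 20.0 CPM in the lesion-free pools. Lesion-free pool 4 was within the lesion range. The log2 fold was -0.50 (95% interval -1.38 to 0.39). CYP51, which removes a methyl group from lanosterol, had the same log2 fold of -0.50 and overlapped at lesion-free pool 4. FDFT1, squalene synthase, differed little between lesion pools, at 43.1 to 46.6 CPM, and lay inside the lesion-free range of 38.6 to 72.5 CPM. NSDHL and HSD17B7, which act on the demethylation of sterols, and the isomerase EBP had log2 folds of -0.25, -0.04 and -0.26. The sign of HSD17B7 turned under plain library totals (0.08).

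**Figure D3:**
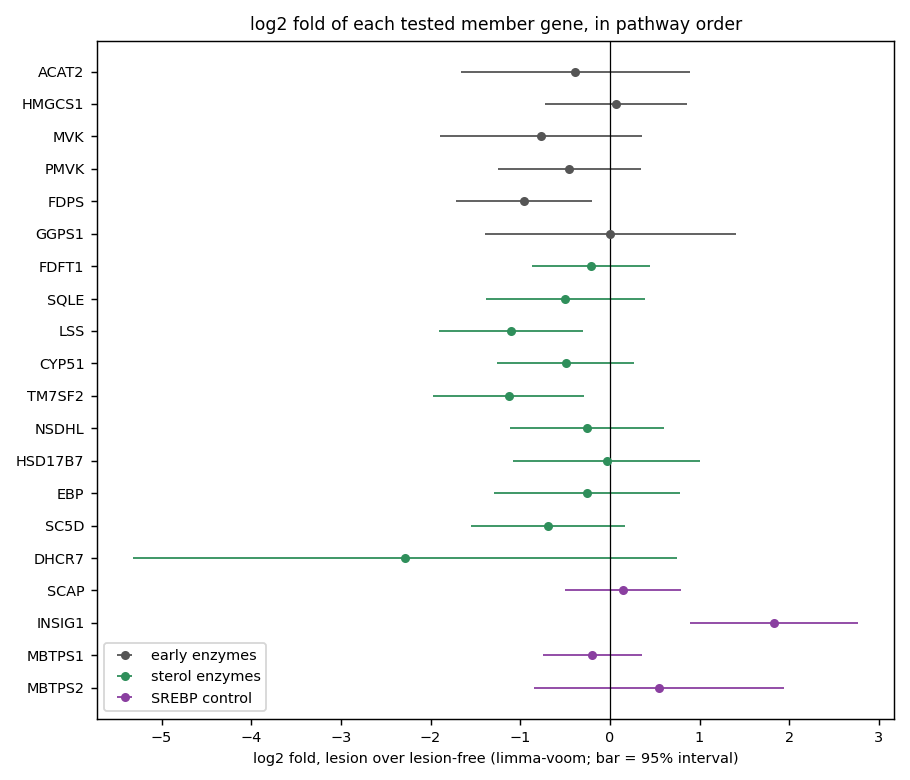
log2 fold of the 20 tested members (x axis; points, with bars for the 95% interval from limma-voom), in pathway order from top to bottom and coloured by role. The intervals of INSIG1, FDPS, LSS and TM7SF2 exclude 0 before adjustment, and all 10 sterol enzymes lie left of 0.

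Relative to the lesion-free mean of log2 CPM, the median over the 20 members was -0.39, -0.36 and -0.38 in lesion pools 1, 2 and 3 and 0.03, -0.15 and 0.14 in lesion-free pools 4, 5 and 6. In the lesion pools 14, 14 and 17 of 20 members lay below that mean, or 70%, 70% and 85%, and for all genes tested it was 52.9%, 44.2% and 44.0%. Lesion-free pool 5 also lay low, with 15 of 20 members below the mean of its own group, 8 of them among the 10 sterol enzymes. In each lesion pool 9 of the 10 sterol enzymes lay below the lesion-free mean. Lesion-free pool 5 held the lowest lesion-free level of 10 members. NSDHL spanned 3.18-fold between lesion-free pools 4 and 5, from 61.7 to 19.4 CPM, and LSS 2.36-fold. Lesion pool 1 held the lowest level of all pools for 7 members and the highest for 6. Those 6 were ACAT2, HMGCS1, GGPS1, HSD17B7, INSIG1 and MBTPS2.

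**Figure D4:**
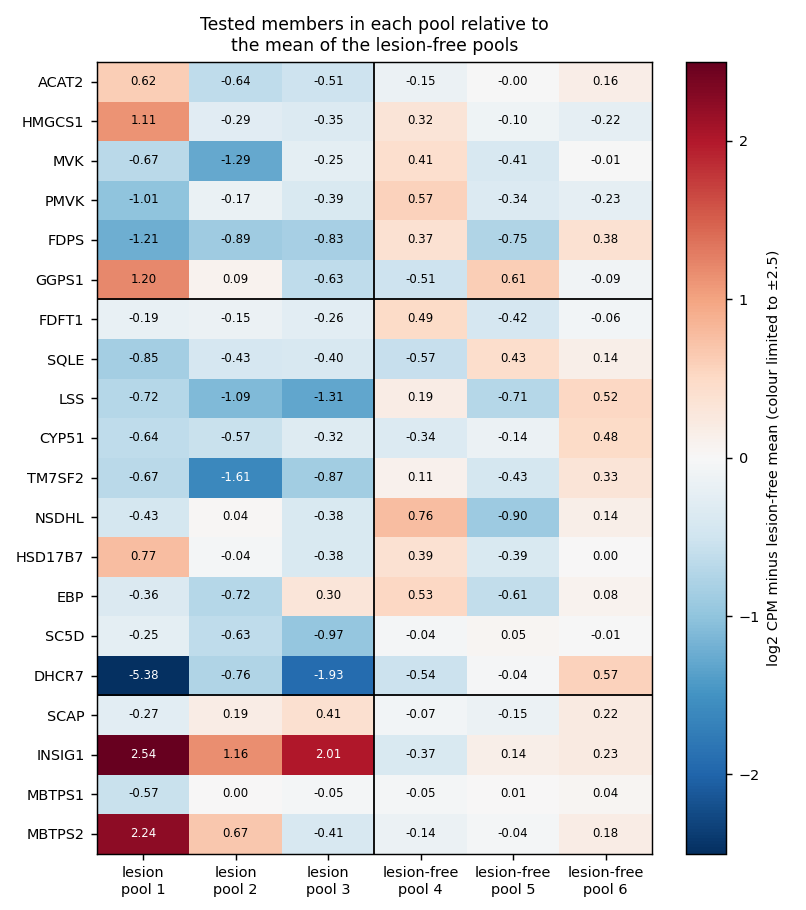
Log2 CPM of each tested member (rows; horizontal lines separate early enzymes, sterol enzymes and SREBP control) in each pool (columns) minus its mean over the lesion-free pools, with the value printed in each cell and colours saturating at the ends of the scale. Lesion pool 1 holds both strongly positive values (INSIG1 2.54, MBTPS2 2.24) and strongly negative ones (DHCR7 -5.38), and lesion-free pool 5 is negative for 15 of 20 members.

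Of 18 further genes listed for sterol synthesis and sensing, 16 were tested and 0 were called by limma. An unadjusted p under 0.05 was found for 2 of the 16, both lower, where 10.6% of all genes tested were under it. SYVN1, a ubiquitin ligase of the endoplasmic reticulum, had a log2 fold of -0.81 (limma adjusted p = 0.264).

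Of 17 genes of sterol uptake and transport, 14 were tested, and 1 rose and 0 fell, against 0.968% and 0.0771% of all genes tested. LIPA, the lysosomal lipase that frees cholesterol from lipoprotein esters, stood at 277, 80.1 and 119 CPM in the lesion pools and 14.9, 12.7 and 17.3 CPM in the lesion-free pools. Every lesion pool was above 80 CPM, and the difference was 9.05-fold (limma adjusted p = 0.00423), called under all 11 alternatives. LIPA and the summed macrophage markers given above were both higher in every lesion pool than in any lesion-free pool. Both were highest in lesion pool 1 and lowest of the lesion pools in pool 2, but the marker sums of lesion pools 1 and 3 were close (3472 and 3322 CPM). Single markers were split. CD68, CD14, CSF1R, TYROBP, FCER1G and CD163 were highest in lesion pool 3, and C1QA, C1QC, MSR1, LYZ, AIF1 and MPEG1 in lesion pool 1. Among lesion-free pools LIPA was highest in pool 6, where the markers were lowest. The part of these markers in the difference of LIPA was not tested.

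The isoform table gave little beyond the gene table. Of 41 isoforms that carry the name of a member, 25 were tested and 0 were called by limma, where 0.45% of 12666 isoforms tested were called. An unadjusted p under 0.05 was found for 4 of the 25 (those of INSIG1, FDPS, LSS and TM7SF2). Each of these had the same counts as its gene row, so they add nothing to the gene results above. The share of all isoforms under that unadjusted threshold is not given here. For 19 of the 41, the isoform counts equalled those of the gene in every pool. For INSIG1, 5 isoforms bore the same name, and 1 of them equalled the gene (log2 fold 1.84, limma adjusted p = 0.195). A pair of others with counts were not part of the gene's count and had log2 folds of 0.60 and 0.64. MBTPS2 had 3 isoforms whose counts added up to the gene's. In lesion-free pool 6 its isoform 001 was listed at 0 and isoform 201 at 55 counts, whereas in the other pools isoform 001 held 47 to 144 counts and isoform 201 held 0. NSDHL was the one member with 2 tested isoforms whose counts, with those of an untested isoform of 5 counts in all, added up to its gene row in every pool. The main isoform held 70, 417 and 264 counts in the lesion pools and 553, 103 and 331 in the lesion-free pools, and the other tested isoform 65, 0 and 41 against 19, 59 and 63. Use of these isoforms did not pass limma's diffSplice test (adjusted p = 0.942), which called 0 of 658 genes (0%), while 32 of the 658 had an unadjusted p under 0.05. A further NSDHL-named isoform outside the gene row held 235, 653 and 579 counts against 753, 694 and 696, and was not low in lesion-free pool 5.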

How the data were processed

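RNA sequencing of 6 pools of abdominal aorta, 3 per group, was used. Column-extracted RNA went into stranded total-RNA libraries, per the labels' protocols. The authors deposited whole-number counts per gene and per isoform, in which commas group the digits of large numbers and were removed. RSEM 1.3.0 and edgeR are named, without a role, per the submitters' processing notes. The genome build is not given in the sources used here, and no coordinates are printed.

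Genes were tested with limma 3.58.1 in R 4.3.3 (voom weights, robust empirical Bayes, two-sided). A gene was tested if 3 or more pools had 1.00 CPM and its counts summed to 15 or more. Benjamini-Hochberg adjustment covered every gene tested, and the threshold was 0.05. Scaling was by the trimmed mean of M values (trimming 30% of M and 5% of A) over those genes, and voom added 0.5 to each count. As deposited, with commas, the columns were not recorded as plain counts, so limma was chosen and kept. Without the commas they are whole numbers, but count models were not run. The fit was tested on simulated data with known changes and the same spread setting for every gene and pool. That test does not measure error rates for these pools. Pools of a group differed by more than sampling noise (chi-square per degree of freedom 22.7 to 97.7).

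The members, lists and rules were chosen with earlier results of these data known. Named with values in all pools were members that were called, had separate groups, had an unadjusted p under 0.05 or were among the 3 highest or lowest log2 folds, and SCAP, INSIG1, HMGCS1 and SQLE. Values in all pools for MBTPS1 and IDI1 were added after their values were seen. From each other list the called genes were named (up to 6, by smallest p), or the 2 with the smallest p, apart from some genes that are not reported here. Alternatives were median-of-ratios scaling, plain library totals, no low-count filter, limma-trend, sample quality weights and leaving out each pool. Isoforms were fitted in the same way, and isoform use was tested with limma's diffSplice where isoform counts added up to the gene row.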

Additional observations from a re-analysis of the deposited data

How the results depend on the processing

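With limma, the numbers of genes called higher and lower over the whole table were 113 and 9. They were 171 and 17 without the low-count filter and 213 and 40 with sample quality weights, and leaving out 1 pool gave 55 to 150 higher and 4 to 36 lower. The number of members called higher, 0 as reported, was 1 with plain library totals and 0 to 1 when 1 pool was left out, INSIG1 each time (log2 fold 2.01 with plain library totals). No member was called lower in any alternative. The members' median log2 fold of -0.32 was -0.17 with plain library totals, -0.26 with limma-trend and -0.21 with sample quality weights, and ran from -0.48 to -0.24 when 1 pool was left out. Signs turned under some alternatives, and the cause was not tested: GGPS1 was -0.018 with median-of-ratios size factors, HSD17B7 was 0.082 with plain library totals and 0.11 with limma-trend, and HMGCS1, GGPS1, NSDHL and IDI1 were -0.11, -0.25, 0.013 and 0.028 with sample quality weights. HBB was 0.083 with plain library totals and 0.019 with limma-trend. When 1 pool was left out, log2 folds ran from -0.32 to 0.31 for HMGCS1, -0.26 to 0.45 for GGPS1, -0.22 to 0.22 for HSD17B7, -0.69 to 0.12 for NSDHL, -0.63 to 0.052 for EBP, -0.42 to 0.028 for FDFT1, -0.006 to 0.30 for SCAP, -1.07 to 0.33 for IDI1 and -0.54 to 0.74 for HBB. No member isoform and no isoform use of a member was called in any isoform alternative. Without the low-count filter diffSplice called 5 of 1274 genes. No paired analysis was made, because the groups are different lines and which animals went into which pool is not stated. In lesion pool 1, where DHCR7 had 0 counts, 1327 of the 11673 genes tested had 0 counts, against 70 to 534 in the other pools. The limit for DHCR7 there, 0.577 CPM, lay below its level in every other pool, and the cause of the 0 was not tested.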

Other observations

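Of 14 listed genes of fatty acid synthesis, the other branch of SREBP control, 10 gene rows were tested, and 1 rose and 0 fell. Of all genes tested, 0.968% rose and 0.0771% fell. SCD, the desaturase that makes oleate, stood at 319, 184 and 275 CPM in lesion pools 1, 2 and 3 and 54.4, 82.5 and 100.4 CPM in lesion-free pools 4, 5 and 6. The groups did not overlap, and the difference was 3.30-fold (limma adjusted p = 0.0105), called under all 11 alternatives. FADS1, a desaturase of polyunsaturated fatty acids, stood at 21.1, 58.0 and 58.6 CPM against 117, 84.6 and 126.6 CPM. Its groups did not overlap either, in the opposite direction, with a log2 fold of -1.27 (limma adjusted p = 0.149). In scaled CPM, FADS1 was 1 of 3 tested genes of this list with lesion pools below without overlap, against 8.97% of all genes tested. SCD was the 1 gene with lesion pools above, against 10.5%. FASN and ACACA, the synthase and the carboxylase at the head of the branch, had log2 folds of 0.19 and 0.21. A further ACACA row did not pass the filter. FADS1, FASN and ACACA are named outside the rule, after their values were seen.

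In the branches that use farnesyl and isopentenyl groups, 0 of 9 tested genes were called by limma, none of them with an unadjusted p under 0.05. NUS1, a subunit of the enzyme that makes dolichol, had a log2 fold of 0.46 (limma adjusted p = 0.653), and ICMT, which methylates prenylated proteins, had one of -0.31 (limma adjusted p = 0.708). FNTB was counted under a row named for its read-through with CHURC1.

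SOAT1, which esterifies cholesterol for storage, and NPC1, which exports it from lysosomes, had log2 folds of 2.29 and 1.07, both with lesion pool 1 highest, and were not called (limma adjusted p = 0.131 and 0.461). Both are named outside the rule, after their values were seen. They were among 4 of the 14 tested genes of sterol uptake and transport with an unadjusted p under 0.05, all higher. Of all genes tested, 10.6% were under it. The groups of NPC1 overlapped. SOAT1 stood at 42.7, 16.7 and 21.3 CPM in the lesion pools against 5.93, 2.51 and 5.99 CPM.

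Among markers of other cells, the macrophage genes MPEG1, FCER1G, C1QC, MSR1, CD68 and AIF1 had log2 folds of 3.08, 3.71, 3.02, 4.60, 4.01 and 3.59. Of 5 endothelial, 6 fibroblast, 3 adipocyte, 4 Schwann cell, 3 lymphocyte and 2 red blood cell genes tested, 0 were called by limma. An unadjusted p under 0.05 was found for 4, PECAM1, TEK, LUM and PDGFRA, all higher, where 10.6% of all genes tested were under it. LUM and PDGFRA were the only positive fibroblast genes, and 4 of 6 were negative, with a median log2 fold of -0.40. Summed fibroblast markers were 1144 to 1348 CPM in lesion pools and 1281 to 1927 CPM in lesion-free pools. PECAM1 was called with sample quality weights (adjusted p = 0.0387). The log2 folds of CIDEC and PLIN1 (adipocytes) were 1.42 and -1.44, of CD3E and CD2 (T cells) 2.21 and 1.86, and of HBA and HBB (red blood cells) -1.13 and -0.06. With 1 pool left out they ran from 0.68 to 1.88 for CIDEC, -2.19 to -0.42 for PLIN1, 1.08 to 3.24 for CD3E, 0.41 to 3.03 for CD2 and -1.99 to -0.46 for HBA. PDGFRA, with 0 counts in lesion-free pool 4, had a log2 fold of 2.96, and of 0.60 without that pool. Summed adipocyte markers were 43.6 to 89.6 CPM in lesion pools and 39.9 to 89.3 CPM in lesion-free pools, with LEP at 0 in all pools. Summed Schwann cell markers, of cells that make much cholesterol for myelin, were 0.192 to 7.39 CPM against 7.62 to 9.81 CPM, with PMP2 at 0 in all pools. Their part in the values of the sterol enzymes was not tested.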
